A study of Mus musculus with 32 samples.

Results

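De novo lipogenesis is the route by which the liver builds fatty acids from acetyl-CoA, and 10 of its enzymes and regulators were followed in mouse liver RNA: Srebf1, Mlxipl, Acly, Acss2, Acaca, Acacb, Fasn, Me1, Thrsp and Pnpla3. They were chosen by gene symbol, and all 10 are among the 41585 gene entries counted in each of 2 tables, which hold the female and the male libraries. In females all 10 passed the filter on low counts, which kept 13226 genes, and in males 9 did among 13460 genes, Pnpla3 being the exception. The study fed wild-type (WT) mice and mice without Cyp2b9, Cyp2b10 and Cyp2b13 (Cyp2b-null, made with CRISPR/Cas9) either a normal chow diet (ND) or CDAHFD, a high-fat diet (62% fat) of defined amino acids without choline and with 0.1% methionine. The mice, labelled as strain C57BL/6, were 10 weeks old when the diets began, and the diets ran for 8 weeks. The 8 groups, WT on ND, WT on CDAHFD, Cyp2b-null on ND and Cyp2b-null on CDAHFD in each sex, held 4 liver libraries each, 32 in all. CDAHFD is used as a model of steatohepatitis, and the comparison of genotypes asks what the absence of these cytochrome P450 enzymes does to the response.

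WT mice were purchased from the Jackson Laboratory and where the Cyp2b-null mice used here were bred is not given in the sources used here, so a difference in the source of the mice, if there was one, cannot be told apart from genotype. The diets differed at once in fat, carbohydrate and maker, and CDAHFD lacked choline, so their parts in a diet effect cannot be told apart. Females and males came in separate tables, so a level difference between the sexes was given no test. RNA came from whole liver, so each value averages over all liver cells. In such bulk samples fewer cells of a type and less RNA per cell cannot be told apart. The libraries summed to between 2906411 and 10166959 counts. Group medians ranged from 4221233.5 counts in WT females on CDAHFD to 7071745 in Cyp2b-null males on CDAHFD. Levels are given as CPM, counts scaled to a library of 1000000 counts after TMM scaling, group values as mean ± SD over 4 libraries, and libraries always in the order of replicates 1 to 4. Every member other than Pnpla3 had at least 62 counts in each library. Effects are log2 changes with their standard error (SE) from edgeR, and a gene is called at an adjusted p under 0.05 over all genes tested.

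The deleted genes were counted first as a check of the genotype labels. Cyp2b9 had 1371 to 3530 counts in WT females on ND and 4 to 8 in Cyp2b-null females on ND. Cyp2b10 had 190 to 391 and 1 to 6 counts in the same groups, and Cyp2b13 had 878 to 2351 and 0. The labels are thus borne out in females. In males on ND, Cyp2b9 had 0 to 15 counts in WT against 4 to 18 in Cyp2b-null, and Cyp2b13 had 0 counts in WT, so neither gene could check a label there. Cyp2b10, at 33 to 97 counts in WT males on ND and 1 to 9 in Cyp2b-null, did separate them. On CDAHFD the male groups were separated by Cyp2b9, at 118 to 364 against 2 to 7 counts. The labelled tissue was checked against 7 hepatocyte markers (Alb, Ttr, Apoa1, Hnf4a, Cps1, Ass1 and Tat), whose summed level was 127818 to 191812 CPM in WT females on ND and 109763 to 125218 CPM in WT males on ND, with Alb the most abundant and none of the 7 at 0.

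In the liver, carbohydrate and insulin both drive lipogenesis. Acly splits citrate, and Acss2 activates acetate, to give cytosolic acetyl-CoA. Acaca and Acacb carboxylate it to malonyl-CoA, which Fasn joins into palmitate with NADPH that Me1 helps to supply. Srebf1 encodes SREBP-1, the factor through which insulin and liver X receptors switch these genes on, and Mlxipl encodes ChREBP, which responds to glucose metabolites. Thrsp (Spot 14) and Pnpla3 are liver genes known to follow both factors.

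Every member tested was lower on CDAHFD. In WT females all 10 members were called lower on CDAHFD, where 10.2% of all genes tested were called lower and 13.9% higher, and the median log2 change was −2.26 for the members against 0.00 for all genes. In Cyp2b-null females all 10 were called lower as well (13.9% of all genes lower and 16.9% higher), with a median of −2.11 against 0.03. The female calls and medians include Pnpla3, which only its ND libraries carried past the filter. That filter thus kept Pnpla3 for a high level on ND. Its calls as lower, and its place in the female counts without overlap below, are conditional on this. In males all 9 members tested were called lower in WT (15% of all genes lower and 18% higher) and in Cyp2b-null (17.1% and 20.3%). Their medians were −2.06 and −1.77, with −0.02 and −0.01 for all genes. Every ND library lay above every CDAHFD library for 8 of 10 members in WT females, for all 10 in Cyp2b-null females and for all 9 tested in males of either genotype. Over all genes, 11.2%, 14.2%, 12.5% and 17% were lower without overlap in these comparisons. Scaling by library size alone moved the median of all genes to 0.32 and 0.28 in females and to 0.37 and 0.36 in males, and no member changed direction under it.

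**Figure D1:**
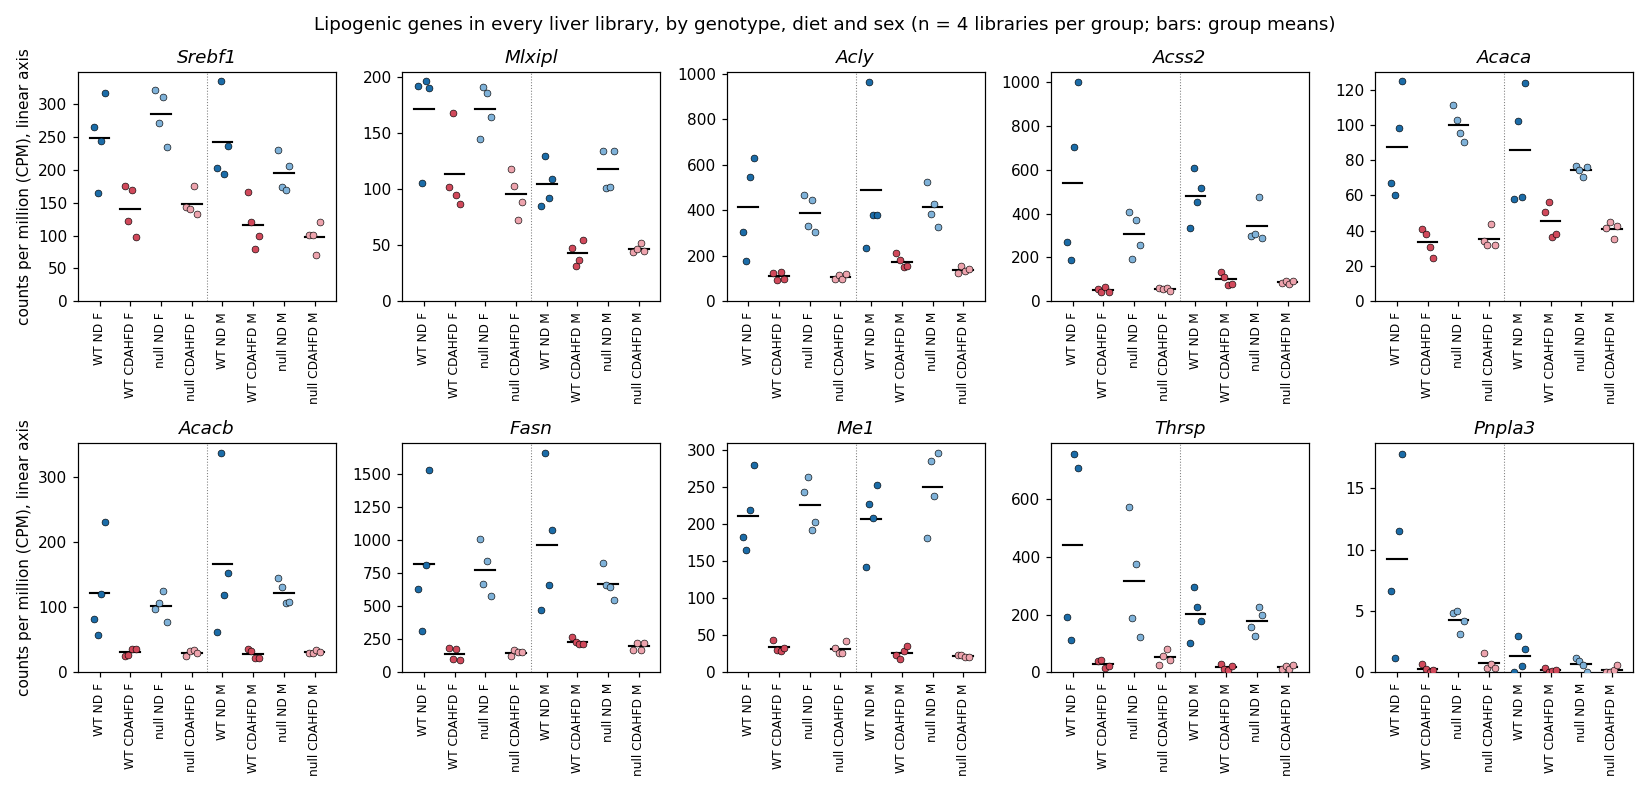
CPM (linear axes from 0) of the 10 lipogenic genes in all 32 libraries, grouped on the x axis by genotype (null: Cyp2b-null), diet and sex (F, M); points are libraries and bars group means. Fasn shows the common pattern, with WT female libraries between 309.8 and 1531 CPM on ND and between 97.0 and 185 CPM on CDAHFD.

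Of the regulators, Srebf1 (gene ID 20787, chromosome 11, 60199084 to 60224186, − strand) encodes both SREBP-1a and SREBP-1c and overlaps Rai1, Mir6921 and Mir6922. In WT females, Srebf1 was at 266, 164, 244 and 317 CPM on ND (248 ± 63.7) and at 175, 122, 169.9 and 98 CPM on CDAHFD (141 ± 37.4). In Cyp2b-null females, Srebf1 was at 322, 272, 310.4 and 235 CPM on ND (285 ± 39.3) and at 143, 140.4, 175 and 133 CPM on CDAHFD (148 ± 18.4). The WT diets overlapped through ND replicate 2, which lay below CDAHFD replicates 1 and 3, while the Cyp2b-null diets were apart. In WT males, Srebf1 was at 203, 336, 194 and 237 CPM on ND (243 ± 65.2) and at 166, 121, 79.0 and 98.6 CPM on CDAHFD (116 ± 37.4). In Cyp2b-null males, Srebf1 was at 229.6, 174, 170.0 and 206 CPM on ND (195 ± 28.0) and at 101, 101, 70.2 and 120.2 CPM on CDAHFD (98.1 ± 20.7). In both male genotypes the ND libraries all lay above the CDAHFD libraries. Srebf1 had a log2 change of −0.82 (SE 0.194, adjusted p = 0.00353) in WT females and −0.95 (SE 0.194, adjusted p = 0.000909) in Cyp2b-null females. For Srebf1 in males it was −1.07 (SE 0.209, adjusted p = 0.000459) in WT and −1.0 (SE 0.209, adjusted p = 0.000717) in Cyp2b-null.

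Mlxipl (gene ID 58805, chromosome 5, 135089890 to 135139768, + strand) had the smallest fall in females. In WT females, Mlxipl was at 192, 105, 196 and 190.1 CPM on ND (171 ± 43.7) and at 102, 168, 94.9 and 86.5 CPM on CDAHFD (113 ± 37.4). In Cyp2b-null females, Mlxipl was at 144, 191, 185 and 164 CPM on ND (171 ± 21.5) and at 118, 103, 72.3 and 88.4 CPM on CDAHFD (95.3 ± 19.5). In WT females ND replicate 2 was far below its group and CDAHFD replicate 2 far above its own, so that the diets overlapped, whereas in Cyp2b-null they did not. In WT males, Mlxipl was at 84.7, 129.7, 91.6 and 109 CPM on ND (104 ± 20.1) and at 47.4, 31.7, 37.0 and 54.5 CPM on CDAHFD (42.7 ± 10.3). In Cyp2b-null males, Mlxipl was at 134, 101, 102 and 134 CPM on ND (118 ± 18.5) and at 43.8, 46.3, 51.9 and 44.6 CPM on CDAHFD (46.7 ± 3.63). Male libraries were apart by diet in both genotypes. Mlxipl had a log2 change of −0.60 (SE 0.212, adjusted p = 0.0425) in WT females and −0.84 (SE 0.213, adjusted p = 0.00489) in Cyp2b-null females. For Mlxipl in males it was −1.28 (SE 0.165, adjusted p = 4.01e-06) in WT and −1.33 (SE 0.163, adjusted p = 1.61e-06) in Cyp2b-null. Its call in WT females was weak. It was lost with library size scaling (−0.29, adjusted p = 0.349), in a fit of those 2 groups alone (−0.60, adjusted p = 0.0700) and when any of 7 single libraries was left out. Without WT ND replicate 1, 3 or 4 it was −0.54 (adjusted p = 0.114), −0.54 (adjusted p = 0.104) and −0.55 (adjusted p = 0.105). Without WT CDAHFD replicate 1, 3 or 4 it was −0.56 (adjusted p = 0.0968), −0.53 (adjusted p = 0.114) and −0.49 (adjusted p = 0.141), and without Cyp2b-null CDAHFD replicate 2 it was −0.60 (adjusted p = 0.0512). In Cyp2b-null females the call was lost with library size scaling only (−0.58, adjusted p = 0.0516). Over the alternatives other than single libraries left out, the adjusted p of Mlxipl ran from 0.00139 to 0.349 in WT females and from 1.07e-06 to 0.0516 in Cyp2b-null females.

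Acly (gene ID 104112, chromosome 11, 100476352 to 100528000, − strand; Mir7116 lies within it) encodes ATP citrate lyase. In WT females, Acly was at 306, 178, 546 and 629 CPM on ND (415 ± 209) and at 122, 93.4, 127 and 98.3 CPM on CDAHFD (110.2 ± 16.8). In Cyp2b-null females, Acly was at 469, 329, 444 and 305 CPM on ND (387 ± 81.7) and at 98.1, 117, 95.6 and 118 CPM on CDAHFD (107 ± 12.0). No ND library of either genotype lay in the CDAHFD range, and the CDAHFD values lay close together. In WT males, Acly was at 235, 965, 378 and 380.3 CPM on ND (489 ± 324) and at 210.3, 179.9, 149.6 and 156 CPM on CDAHFD (174 ± 27.6). In Cyp2b-null males, Acly was at 524, 384, 428 and 327 CPM on ND (416 ± 83.5) and at 124, 156, 131 and 142 CPM on CDAHFD (138 ± 13.6). WT ND replicate 2 stood far above its group and ND replicate 1 only just above the CDAHFD libraries, yet the diets did not overlap in either genotype. Acly had a log2 change of −1.91 (SE 0.269, adjusted p = 2.09e-05) in WT females and −1.85 (SE 0.269, adjusted p = 2.90e-05) in Cyp2b-null females. For Acly in males it was −1.49 (SE 0.282, adjusted p = 0.000311) in WT and −1.59 (SE 0.283, adjusted p = 0.000138) in Cyp2b-null. Without WT ND replicate 2 the WT male change was −0.93 and was still called, the adjusted p over all libraries left out in turn being 2.48e-05 to 0.00193.

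Acss2 (gene ID 60525, chromosome 2, 155518043 to 155562743, + strand) encodes the cytosolic acetyl-CoA synthetase and overlaps the antisense gene Acss2os; the library kit does not mark strand, so reads of the overlap cannot be told apart. In WT females, Acss2 was at 269, 186, 703 and 999.8 CPM on ND (539.7 ± 381) and at 57.5, 41.5, 65.4 and 39.8 CPM on CDAHFD (51.1 ± 12.5). In Cyp2b-null females, Acss2 was at 407, 192, 373 and 256 CPM on ND (307 ± 101) and at 62.3, 56.6, 61.7 and 47.1 CPM on CDAHFD (56.9 ± 7.01). WT ND libraries ran from replicate 2, the lowest, to replicate 4, the highest, and even the lowest was well above all CDAHFD libraries; the same held in Cyp2b-null. In WT males, Acss2 was at 333, 609.9, 455 and 517 CPM on ND (479 ± 116) and at 135, 109, 73.2 and 79.9 CPM on CDAHFD (99.4 ± 28.6). In Cyp2b-null males, Acss2 was at 299, 305, 476 and 287 CPM on ND (342 ± 89.6) and at 82.4, 92.9, 77.2 and 92.3 CPM on CDAHFD (86.2 ± 7.69). In males the diets were apart too, with replicate 3 high among the Cyp2b-null ND libraries. Acss2 had a log2 change of −3.40 (SE 0.392, adjusted p = 2.22e-06) in WT females and −2.43 (SE 0.378, adjusted p = 5.81e-05) in Cyp2b-null females. For Acss2 in males it was −2.27 (SE 0.208, adjusted p = 5.46e-08) in WT and −1.99 (SE 0.206, adjusted p = 1.93e-07) in Cyp2b-null. In WT females the fitted change is a 10.6-fold lower level.

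Acaca (gene ID 107476, chromosome 11, 84129635 to 84401651, + strand) encodes acetyl-CoA carboxylase 1, the step that commits acetyl-CoA to fatty acid synthesis, and shares its span with Tada2a, Gm11437 and Gm31074. In WT females, Acaca was at 67.0, 60.0, 98 and 125 CPM on ND (87.5 ± 30.0) and at 41.0, 38.1, 30.7 and 24.3 CPM on CDAHFD (33.5 ± 7.52). In Cyp2b-null females, Acaca was at 111, 103, 95.2 and 90.3 CPM on ND (99.8 ± 9.09) and at 34.0, 32.1, 43.5 and 31.8 CPM on CDAHFD (35.3 ± 5.50). In both genotypes of females the diets were apart, with Cyp2b-null ND libraries close together. In WT males, Acaca was at 58.1, 102, 59.1 and 124 CPM on ND (85.7 ± 32.5) and at 50.6, 56.3, 36.5 and 38.3 CPM on CDAHFD (45.4 ± 9.58). In Cyp2b-null males, Acaca was at 76.7, 74.3, 70.2 and 75.9 CPM on ND (74.2 ± 2.88) and at 41.4, 44.9, 35.4 and 42.6 CPM on CDAHFD (41.1 ± 4.08). WT males on ND formed a low pair, replicates 1 and 3, just above the highest CDAHFD library, and a high pair, while the Cyp2b-null ND libraries were tight. Acaca had a log2 change of −1.40 (SE 0.204, adjusted p = 3.30e-05) in WT females and −1.50 (SE 0.203, adjusted p = 1.35e-05) in Cyp2b-null females. For Acaca in males it was −0.92 (SE 0.199, adjusted p = 0.00114) in WT and −0.86 (SE 0.198, adjusted p = 0.00169) in Cyp2b-null.

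Acacb (gene ID 100705, chromosome 5, 114146321 to 114250761, + strand) encodes acetyl-CoA carboxylase 2 of the outer mitochondrial membrane, whose malonyl-CoA restrains fatty acid entry into mitochondria. In WT females, Acacb was at 82.4, 56.9, 121 and 230.0 CPM on ND (122 ± 76.3) and at 25.9, 27.4, 35.3 and 36.1 CPM on CDAHFD (31.2 ± 5.26). In Cyp2b-null females, Acacb was at 96.5, 107, 125 and 77.8 CPM on ND (102 ± 19.8) and at 25.2, 33.5, 33.7 and 29.1 CPM on CDAHFD (30.4 ± 4.08). WT ND replicate 4 was much higher than the others, and no CDAHFD library of either genotype reached an ND library. In WT males, Acacb was at 62.6, 336, 118 and 152 CPM on ND (167 ± 118) and at 36.0, 33.2, 22.3 and 22.7 CPM on CDAHFD (28.6 ± 7.06). In Cyp2b-null males, Acacb was at 145, 131, 106 and 108 CPM on ND (122 ± 18.9) and at 29.7, 29.1, 33.9 and 31.3 CPM on CDAHFD (31.0 ± 2.12). Again 1 WT ND library, replicate 2, stood far above the rest, and the diets were apart in both genotypes. Acacb had a log2 change of −1.98 (SE 0.291, adjusted p = 3.38e-05) in WT females and −1.73 (SE 0.289, adjusted p = 0.000133) in Cyp2b-null females. For Acacb in males it was −2.56 (SE 0.330, adjusted p = 4.22e-06) in WT and −1.98 (SE 0.322, adjusted p = 5.18e-05) in Cyp2b-null. Without that library the WT male change was −1.97 and was still called, the adjusted p over all libraries left out in turn being 1.36e-07 to 4.67e-05.

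Fasn (gene ID 14104, chromosome 11, 120805958 to 120825166, − strand) encodes fatty acid synthase and had the highest mean CPM of the set in every ND group. In WT females, Fasn was at 629, 309.8, 812 and 1531 CPM on ND (820.4 ± 517) and at 185, 105, 177 and 97.0 CPM on CDAHFD (141 ± 46.5). In Cyp2b-null females, Fasn was at 1007, 667, 846 and 579.9 CPM on ND (775 ± 190.4) and at 120.4, 167, 154 and 157 CPM on CDAHFD (149.6 ± 20.3). WT ND libraries spread widely, replicate 4 highest and replicate 2 lowest, and still lay above all CDAHFD libraries, as did those of Cyp2b-null. In WT males, Fasn was at 472, 1656, 661 and 1078 CPM on ND (967 ± 525) and at 267, 229, 213 and 217 CPM on CDAHFD (231 ± 24.6). In Cyp2b-null males, Fasn was at 831, 661, 643 and 549 CPM on ND (671 ± 117) and at 169.7, 224, 172 and 219 CPM on CDAHFD (196 ± 29.5). Male ND libraries, widest in WT, were likewise all above the CDAHFD libraries. Fasn had a log2 change of −2.54 (SE 0.337, adjusted p = 1.12e-05) in WT females and −2.37 (SE 0.334, adjusted p = 2.13e-05) in Cyp2b-null females. For Fasn in males it was −2.06 (SE 0.262, adjusted p = 3.38e-06) in WT and −1.77 (SE 0.260, adjusted p = 1.51e-05) in Cyp2b-null.

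Me1 (gene ID 17436, chromosome 9, 86581363 to 86695914, − strand) encodes cytosolic malic enzyme, a source of NADPH, and overlaps A330041J22Rik on the genome. In WT females, Me1 was at 183, 165, 219 and 281 CPM on ND (212 ± 51.2) and at 44.2, 30.1, 28.7 and 33.5 CPM on CDAHFD (34.1 ± 7.0). In Cyp2b-null females, Me1 was at 244, 264, 193 and 203 CPM on ND (226 ± 33.7) and at 32.4, 26.1, 26.9 and 42.9 CPM on CDAHFD (32.1 ± 7.74). The ND libraries varied little for this set, and none of either genotype came near the CDAHFD libraries. In WT males, Me1 was at 143, 228, 209 and 253 CPM on ND (208 ± 47.3) and at 23.0, 17.8, 28.6 and 35.5 CPM on CDAHFD (26.2 ± 7.59). In Cyp2b-null males, Me1 was at 181, 286, 239 and 296 CPM on ND (251 ± 52.5) and at 24.2, 23.3, 20.6 and 21.4 CPM on CDAHFD (22.4 ± 1.64). The gap was wide in males of both genotypes as well. Me1 had a log2 change of −2.64 (SE 0.199, adjusted p = 7.57e-09) in WT females and −2.81 (SE 0.199, adjusted p = 2.47e-09) in Cyp2b-null females. For Me1 in males it was −2.98 (SE 0.205, adjusted p = 1.40e-09) in WT and −3.48 (SE 0.208, adjusted p = 1.58e-10) in Cyp2b-null. Me1 had the smallest adjusted p of all members in each of the 4 diet comparisons, with levels 6.22-fold and 7.01-fold lower in WT and Cyp2b-null females and 7.91-fold and 11.2-fold lower in males.

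Thrsp (gene ID 21835, chromosome 7, 97412933 to 97417550, − strand) encodes Spot 14, a small nuclear and cytosolic protein that promotes lipogenesis. In WT females, Thrsp was at 193, 112, 756 and 706 CPM on ND (442 ± 336) and at 38.4, 44.6, 16 and 22.1 CPM on CDAHFD (30.3 ± 13.5). In Cyp2b-null females, Thrsp was at 573, 188, 375 and 123 CPM on ND (315 ± 203) and at 26.5, 55.6, 81.9 and 43.7 CPM on CDAHFD (51.9 ± 23.3). WT ND libraries formed a low pair, replicates 1 and 2, and a high pair, replicates 3 and 4, and Cyp2b-null ND libraries were scattered too, but all were above the CDAHFD libraries. In WT males, Thrsp was at 102, 296, 227 and 179 CPM on ND (201 ± 81.6) and at 28.4, 12.7, 9.90 and 20.6 CPM on CDAHFD (17.9 ± 8.33). In Cyp2b-null males, Thrsp was at 158, 126, 228 and 200.3 CPM on ND (178 ± 45.1) and at 11.5, 20.7, 13.2 and 25.7 CPM on CDAHFD (17.8 ± 6.59). Male libraries were apart by diet in both genotypes, with the lowest ND value several times the highest on CDAHFD. Thrsp had a log2 change of −3.88 (SE 0.573, adjusted p = 3.65e-05) in WT females and −2.59 (SE 0.538, adjusted p = 0.00102) in Cyp2b-null females. For Thrsp in males it was −3.51 (SE 0.338, adjusted p = 9.92e-08) in WT and −3.34 (SE 0.334, adjusted p = 1.13e-07) in Cyp2b-null.

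Pnpla3 (gene ID 116939, chromosome 15, 84167776 to 84189521, + strand; Mir6392 and Gm20369 overlap it) encodes patatin-like phospholipase domain-containing protein 3, found on lipid droplets, and had the lowest counts of the set. In WT females, Pnpla3 was at 6.60, 1.17, 11.5 and 17.8 CPM on ND (9.28 ± 7.10) and at 0.669, 0.243, 0 and 0.161 CPM on CDAHFD (0.268 ± 0.286). In Cyp2b-null females, Pnpla3 was at 4.86, 5.01, 3.12 and 4.22 CPM on ND (4.30 ± 0.858) and at 1.56, 0.329, 0.721 and 0.373 CPM on CDAHFD (0.745 ± 0.569). All ND libraries lay above the CDAHFD libraries in both genotypes, though WT ND replicate 2, with 3 counts, did so narrowly. Pnpla3 had a log2 change of −5.11 (SE 0.699, adjusted p = 1.51e-05) in WT females and −2.69 (SE 0.631, adjusted p = 0.00282) in Cyp2b-null females. Only the ND libraries carried Pnpla3 past the female filter, so these calls and the lack of overlap are conditional on a high level on ND. Without WT CDAHFD replicate 1 the WT change was −5.95 and was still called, the adjusted p over all libraries left out in turn being 7.14e-07 to 0.000164. An edgeR fit without a filter gave −5.15 (SE 0.486, adjusted p = 6.21e-24) in WT females and −2.75 (SE 0.440, adjusted p = 1.57e-08) in Cyp2b-null females. Each Pnpla3 p-value of the unfiltered fits, before adjustment, was that of a normal distribution for the change over its SE. Such p-values make no allowance for the few libraries, so they are not read as support for the calls. Summed over 4 libraries, the counts on ND and CDAHFD were 173 against 5, a ratio of 41.8 after scaling (95% counting interval 17.6 to 130), in WT females. In Cyp2b-null females they were 74 against 15, a ratio of 6.92 after scaling (95% counting interval 3.93 to 13). The intervals cover counting error only. In WT males, Pnpla3 was at 0, 2.93, 0.539 and 1.93 CPM on ND (1.35 ± 1.33) and at 0.373, 0, 0.115 and 0.175 CPM on CDAHFD (0.166 ± 0.156). In Cyp2b-null males, Pnpla3 was at 1.20, 0.895, 0.621 and 0 CPM on ND (0.68 ± 0.512) and at 0, 0, 0.164 and 0.606 CPM on CDAHFD (0.193 ± 0.286). Male libraries overlapped between the diets in both genotypes, with 0 counts in at least 1 library of each group. Summed male counts were 31 against 4, a ratio of 8.04 after scaling (95% counting interval 2.84 to 31.4), in WT. For Cyp2b-null males the sums were 18 against 5, a ratio of 5.19 after scaling (95% counting interval 1.86 to 17.9). Pnpla3 failed the male filter. In a fit without a filter its change was −2.89 (SE 0.882, adjusted p = 0.00811) in WT males and −2.07 (SE 0.890, adjusted p = 0.0863) in Cyp2b-null males. These p-values have the same limit as the unfiltered female ones.

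**Figure D2:**
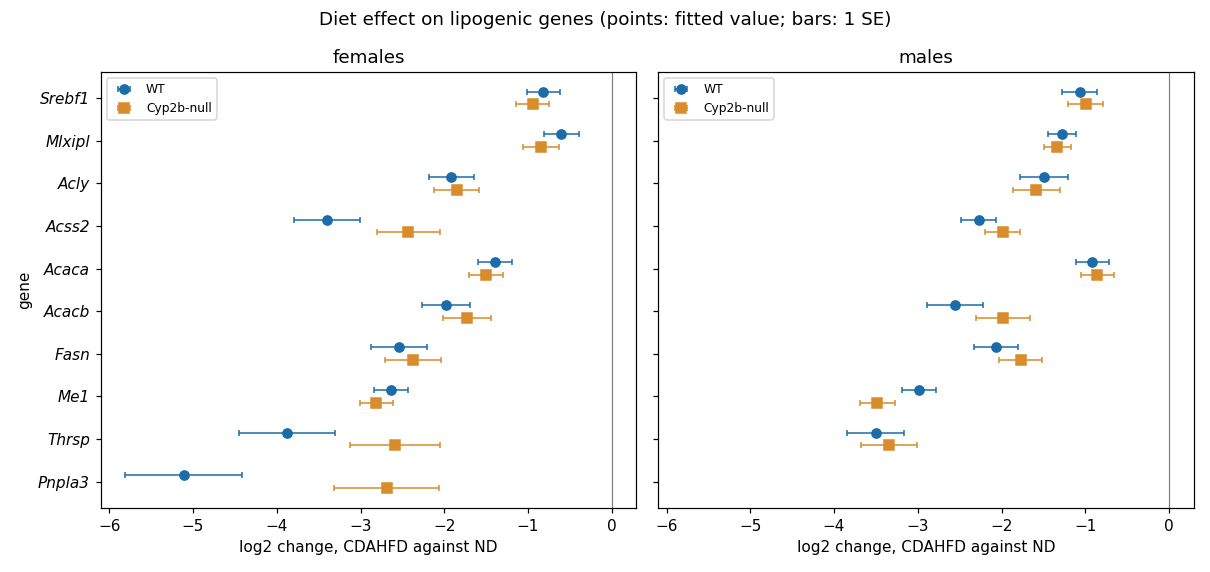
Log2 change on CDAHFD against ND (x axis, log2 scale, bars 1 SE) of each gene (y axis) in females and males, WT and Cyp2b-null. All points lie left of 0, from −5.11 for Pnpla3 in WT females to −0.60 for Mlxipl in the same comparison; Pnpla3 has no male point because it failed the filter.

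The falls were unequal enough to change the order of the genes. Levels were compared between genes as mean CPM per kb of annotated GENCODE exons, although a transcript may use only part of them, so that a gene with rarely used exons reads low. In WT females on ND, Thrsp led at 202 ± 154, followed by Acly at 78.6 ± 39.6, Fasn at 74.9 ± 47.2, Me1 at 55.1 ± 13.3 and Acss2 at 53.1 ± 37.5 CPM per kb. Srebf1 was at 44.0 ± 11.3, Mlxipl at 30.8 ± 7.89 and Acacb at 12.7 ± 7.92, with Pnpla3 at 6.00 ± 4.59 and Acaca at 5.12 ± 1.75 CPM per kb last. Each neighbouring pair in that order overlapped between libraries. On CDAHFD the regulators and Acly came first in WT females, Srebf1 at 25.0 ± 6.63, Acly at 20.9 ± 3.19 and Mlxipl at 20.4 ± 6.75 CPM per kb. Thrsp was at 13.8 ± 6.15 and Fasn at 12.9 ± 4.24 CPM per kb. Each of these 5 overlapped with the next in the order, Fasn with Me1. Below them, Me1 at 8.86 ± 1.82, Acss2 at 5.02 ± 1.23, Acacb at 3.23 ± 0.546 and Acaca at 1.96 ± 0.44 CPM per kb were each apart from the next. In WT males on ND, Acly (92.7 ± 61.4), Thrsp (91.7 ± 37.3) and Fasn (88.3 ± 47.9) led and overlapped. On CDAHFD, Acly at 32.9 ± 5.22 CPM per kb stood apart from the next, Fasn at 21.1 ± 2.25, in WT males, while it overlapped with Srebf1 at 20.6 ± 6.65, and Thrsp was at 8.17 ± 3.80. In Cyp2b-null mice Thrsp came first on ND in both sexes, overlapping with Acly, and on CDAHFD Srebf1 came first in females and Acly in males, Acly again apart from Fasn, the next.

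In some groups, WT mice on ND above all, most members shared their lowest and their highest library. Of the WT females on ND, replicate 2 was the lowest for all 10 members and replicate 4 the highest for 8. In its group, replicate 2 also had the lowest total (3035683 counts), the lowest TMM factor (0.847) and the fewest genes with a count (16331). Its hepatocyte marker sum, 191812 CPM, was the highest of that group. Among WT males on ND, replicate 1 was the lowest for 9 and replicate 2 the highest for 8. In WT males on CDAHFD replicate 3 was the lowest and replicate 1 the highest for 7 members each, and in Cyp2b-null females on ND replicate 4 was the lowest and replicate 1 the highest for 6 each. In Cyp2b-null females on CDAHFD no library was the lowest for more than 3 members. The highest WT female ND library exceeded the lowest by 6.74-fold for Thrsp, 5.37-fold for Acss2 and 4.94-fold for Fasn. In Cyp2b-null females on ND the same ratios were 4.65-fold, 2.13-fold and 1.74-fold. Of the genes that fasting induces, those named here for their change with diet (Pck1, Igfbp1, G6pc and Fgf21) were highest in WT female ND replicate 2. The other genes of that list are not given by library here. Pck1, which makes phosphoenolpyruvate for glucose output, was at 3076, 6499, 4142 and 4047 CPM in WT females on ND. Igfbp1, an insulin-repressed secreted protein, was at 104, 367, 97.3 and 107 CPM there, and G6pc, the glucose-6-phosphatase, at 498, 730.2, 414 and 371 CPM. Fgf21 was highest in replicate 2 as well, at few counts. In WT males on ND, Pck1 was at 2112, 752, 2643 and 2654 CPM, Igfbp1 at 68.3, 27.5, 126 and 58.2 CPM and G6pc at 382, 291, 357 and 344 CPM. All 3 were lowest in replicate 2, where most members were highest, but in replicate 1, where most members were lowest, only G6pc was highest. The part of nutritional state in the spread of the members was not tested, and the sample labels do not give the time of day or the feeding state at tissue collection. All 10 members were called lower in WT females also without ND replicate 2.

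No member was called for genotype with the filter on low counts. On ND in females, edgeR called 0 of 10 members different between Cyp2b-null and WT, with 0.0756% of all genes called, and 2 members, Acss2 and Pnpla3, at an unadjusted p under 0.05; DESeq2 called 0, with 1 at an unadjusted p under 0.05. The log2 differences were −0.82 (SE 0.356, adjusted p = 0.840) for Acss2 and −1.15 (SE 0.463, adjusted p = 0.795) for Pnpla3. With single libraries left out they ran from −1.10 to −0.33 and from −1.46 to −0.58. For Acss2, WT replicates 3 and 4 were above all Cyp2b-null libraries and replicate 2 below them, and for Pnpla3 only replicate 2 was not above them. On CDAHFD in females, edgeR called 0 of 10 (0.0227% of all genes) with 0 at an unadjusted p under 0.05, and DESeq2 gave 0 and 0. The largest female difference there in size was 1.28 (SE 1.01, adjusted p = 0.832) for Pnpla3 and the next 0.79 (SE 0.536, adjusted p = 0.832) for Thrsp, with ranges over single libraries left out of 0.79 to 2.11 and 0.50 to 1.04. The Pnpla3 value rests on 5 counts in WT and 15 in Cyp2b-null, summed over 4 libraries each. Pnpla3 was tested there only because its ND libraries passed the filter. The same few counts enter its difference in diet effect. A difference in diet effect between genotypes was called for 0 of 10 members in females (0% of all genes called), with 1 at an unadjusted p under 0.05, Pnpla3 at 2.42 (SE 1.12, adjusted p = 0.760) and from 1.86 to 3.26 with single libraries left out, and DESeq2 also gave 0 called and 1 such gene. With no filter on low counts, edgeR called that difference for Acss2, at 0.96 (adjusted p = 0.0249; lowest and highest over its alternatives 0.0249 to 0.987), and for Thrsp, at 1.29 (adjusted p = 0.000102; lowest and highest over its alternatives 0.000102 to 0.987), among 46 of 25490 genes called in that fit. All of these comparisons share the same 4 groups. The p-values of the fit with no filter have the limit given above for Pnpla3, so its calls are not read as a difference.

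In males on ND, edgeR called 0 of 9 members for genotype (0.0371% of all genes), with 2 at an unadjusted p under 0.05, Fasn at −0.53 (SE 0.252, adjusted p = 0.605) and Acss2 at −0.49 (SE 0.198, adjusted p = 0.503); DESeq2 called 0, with 2 at an unadjusted p under 0.05. With single libraries left out, the Fasn difference ran from −0.75 to −0.14 and that of Acss2 from −0.69 to −0.35. Fasn in Cyp2b-null males on ND lay within the WT range, and Acss2 had 3 Cyp2b-null libraries below all WT libraries and replicate 3 among them. On CDAHFD in males, edgeR called 0 of 9 (0.0297% of all genes), with 0 at an unadjusted p under 0.05, and DESeq2 gave 0 and 0. Member differences there ran from −0.33 to 0.13. For the difference in diet effect between genotypes in males, edgeR called 0 of 9 members (0.00743% of all genes), with 0 at an unadjusted p under 0.05, and DESeq2 gave 0 and 0. Me1 had the smallest adjusted p of these, with a difference of −0.50 (SE 0.275, adjusted p = 0.836) and a range over single libraries left out of −0.64 to −0.33. With no filter on low counts edgeR did call Acss2 on ND in females, at −0.81 (adjusted p = 0.000303, with a range over the alternatives of 0.000303 to 1), and Thrsp on CDAHFD in females, at 0.81 (adjusted p = 0.00249, range 0.00249 to 1). In the fit with no filter, calls among all genes rose from 10 to 122 of 25490 genes for genotype on ND in females. They were 69 of 25490 genes on CDAHFD, and the cause was not tested. The p-values of that fit have the limit given for Pnpla3, so its calls of Acss2 and Thrsp are not read as genotype differences.

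**Figure D3:**
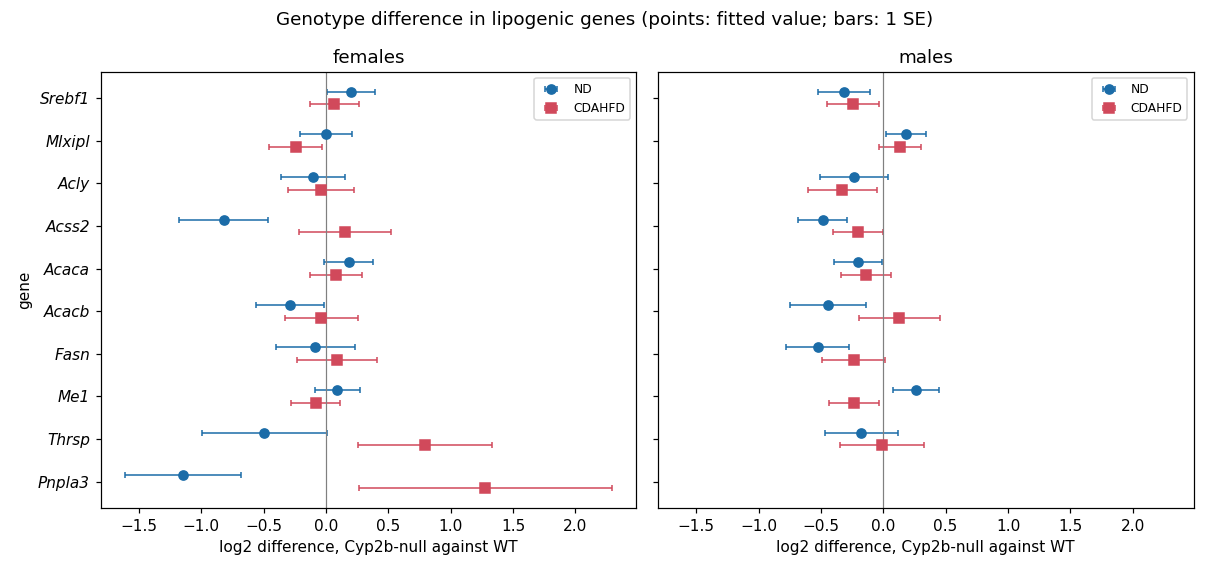
Log2 difference of Cyp2b-null against WT (x axis, log2 scale, bars 1 SE) of each gene (y axis) on ND and on CDAHFD, in females and males. Points lie on both sides of 0, from −1.15 for Pnpla3 on ND in females to 1.28 for the same gene on CDAHFD in females, and none was called. The value of 1.28 rests on 5 counts in WT and 15 in Cyp2b-null.

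A fit of both tables together, over 14020 genes, asked whether the diet effect differed between the sexes. In WT, edgeR called 0 of 10 members (0.97% of all genes) with 2 at an unadjusted p under 0.05, and DESeq2 called 0, with 2 such genes. The pair was Acss2, whose change was less negative in males by 1.16 (SE 0.452, adjusted p = 0.296), and Mlxipl, more negative in males at −0.66 (SE 0.281, adjusted p = 0.379), with ranges over single libraries left out of 0.67 to 1.44 and −0.79 to −0.40. In Cyp2b-null, edgeR called 0 of 10 (3.4% of all genes), with Acaca at 0.66 (SE 0.300, adjusted p = 0.218) and Me1 at −0.65 (SE 0.286, adjusted p = 0.206) the 2 at an unadjusted p under 0.05, and DESeq2 gave 0 and 2. Their ranges over single libraries left out were 0.61 to 0.79 and −0.78 to −0.47. Alternatives did call members, but the p-values with no filter have the limit given for Pnpla3. With no filter, edgeR called Acss2 in WT, at 1.14 (adjusted p = 4.97e-05; lowest and highest over its alternatives 4.97e-05 to 0.641), and Thrsp in Cyp2b-null, at −0.75 (adjusted p = 0.0292; lowest and highest over its alternatives 0.0292 to 0.843), where 469 of 27613 genes in WT and 923 of 27613 genes in Cyp2b-null were called. In a fit of the Cyp2b-null groups alone it called Acaca, at 0.66 (adjusted p = 0.0452; lowest and highest over its alternatives 0.0452 to 0.320), among 493 of 13522 genes called.

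Genes around the route were described from fixed lists, by counts called and medians, beside the all-gene values above. Of 7 tested genes of substrate and NADPH supply, 3 were lower and 1 higher on CDAHFD in WT females. In Cyp2b-null females these counts were 5 and 2, in WT males 4 and 2 and in Cyp2b-null males 4 and 2. The median log2 changes were −0.96, −0.88, −0.93 and −0.98 in that order. The citrate carrier Slc25a1 had 0 counts in all libraries. Whether it was not expressed or was missed in counting was not tested. Pklr, liver pyruvate kinase, fell by 1.46 (adjusted p = 0.000112) in WT females and by 1.49 (adjusted p = 1.79e-06) in WT males, from 243, 207, 357 and 508 CPM on ND to 128, 128, 132 and 89.4 CPM in WT females. Khk, ketohexokinase, changed by −1.27 (adjusted p = 0.000186) and −1.34 (adjusted p = 3.64e-07) in WT females and males, and Idh1, a cytosolic NADPH source, by −0.96 (adjusted p = 1.01e-05) and −0.82 (adjusted p = 4.03e-05). G6pdx, which opens the pentose phosphate route to NADPH, moved up, by 0.84 (adjusted p = 0.00332) in WT females, 1.06 (adjusted p = 0.000444) in Cyp2b-null females, 1.10 (adjusted p = 0.000686) in WT males and 1.75 (adjusted p = 4.85e-06) in Cyp2b-null males. Its WT female levels were 6.60, 7.40, 5.42 and 8.66 CPM on ND and 12.3, 13.6, 10.7 and 14.3 CPM on CDAHFD, with no overlap.

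Of 3 malonyl-CoA partners, 1 was lower and 1 higher in WT females, 1 and 0 in Cyp2b-null females, 1 and 1 in WT males and 2 and 1 in Cyp2b-null males (medians −0.24, 0.04, −0.27 and −0.35). Mid1ip1, a paralogue of Thrsp that activates acetyl-CoA carboxylase, changed by −1.08 (adjusted p = 0.00550) and −1.09 (adjusted p = 4.54e-05) in WT females and males. Cpt1a, the mitochondrial entry enzyme that malonyl-CoA inhibits, changed by 0.61 (adjusted p = 0.0329) and 0.62 (adjusted p = 0.00272) in WT and by 0.56 (adjusted p = 0.00503) in Cyp2b-null males, and was not called in Cyp2b-null females at 0.40 (adjusted p = 0.140).

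Among 12 genes of desaturation, elongation and glycerolipid assembly, 8 were lower and 0 higher in WT females, 8 and 0 in Cyp2b-null females, 6 and 2 in WT males and 6 and 2 in Cyp2b-null males (medians −0.53, −0.58, −0.43 and −0.31). Scd1, the stearoyl-CoA desaturase, was at 9877, 7409, 14653 and 21526 CPM on ND and 145, 219, 139 and 182 CPM on CDAHFD in WT females, with no overlap. Elovl6, the elongase that acts on palmitate, changed by −2.68 (adjusted p = 1.19e-05) and −2.46 (adjusted p = 2.47e-05) in WT and Cyp2b-null females and by −1.77 (adjusted p = 2.63e-07) and −1.28 (adjusted p = 9.68e-06) in males. Gpam, which starts glycerolipid synthesis, changed by −0.81 (adjusted p = 0.00340) and −1.09 (adjusted p = 0.000127) in WT females and males. Lpin1, a phosphatidate phosphatase, fell in females, by 1.94 (adjusted p = 0.00320) in WT, and was not called in males, at −0.35 (adjusted p = 0.383) in WT.

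Of 5 genes of SREBP processing, 2 were lower in WT females, 3 in Cyp2b-null females, 2 in WT males and 2 in Cyp2b-null males, and edgeR called none higher (medians −0.21, −0.38, −0.05 and −0.56). Insig1, which holds SREBPs in the endoplasmic reticulum and is itself an SREBP target, went from 786, 292, 699 and 633 to 189, 98.2, 199 and 93.9 CPM in WT females, a change of −2.06 (adjusted p = 8.16e-05), and changed by −1.45 (adjusted p = 2.00e-05) in WT males. Scap, the escort of SREBPs, changed by −0.73 (adjusted p = 0.00331) and −0.63 (adjusted p = 0.000427). Of 7 other transcription factors and coactivators of lipogenesis, called-lower counts were 0, 1, 2 and 0 in WT females, Cyp2b-null females, WT males and Cyp2b-null males, none was called higher, and medians were −0.12, −0.24, 0.01 and −0.14. Mlx, the partner of ChREBP, changed by −0.50 (adjusted p = 0.00664) and Usf2 by −0.31 (adjusted p = 0.0355) in WT males. Among 10 genes of insulin and AMPK signalling, 2 were lower and 0 higher in WT females, 4 and 1 in Cyp2b-null females, 3 and 0 in WT males and 3 and 2 in Cyp2b-null males (medians −0.27, −0.56, −0.07 and −0.09). Irs1, an adaptor of the insulin receptor, changed by −0.52 (adjusted p = 0.0335) and −0.88 (adjusted p = 0.00253) in WT females and males, the forkhead factor Foxo1 by −0.79 (adjusted p = 0.0212) and −0.44 (adjusted p = 0.0440), and the receptor Insr by −0.84 (adjusted p = 0.000794) in Cyp2b-null females and −0.40 (adjusted p = 0.0381) in WT males.

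The sterol branch was set beside the lipogenic genes because SREBP-2 drives it through the same processing steps. Of 13 cholesterol synthesis genes, 12 were lower in WT females, 12 in Cyp2b-null females, 4 in WT males and 8 in Cyp2b-null males and none was called higher, with medians of −1.50, −1.66, −0.36 and −0.54. By the test between the sexes, 3 of the 13 differed in WT and 3 in Cyp2b-null, each less negative in males. The median difference over all 13 was 1.27 in WT and 0.93 in Cyp2b-null. Of all genes, 0.97% and 3.4% were called by that test. No lipogenic member was called by it with the filter and all 8 groups in the fit. The member medians were 0.42 in WT and 0.13 in Cyp2b-null, and the difference between the lists was not tested. Fdps changed by −2.16 (adjusted p = 7.23e-05) and Sqle by −1.69 (adjusted p = 0.00194) in WT females.

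Of 9 tested fasting-induced genes (Angptl4, at 4 counts in females and 5 in males, failed the filter), 3 were lower and 2 higher in WT females, 3 and 0 in Cyp2b-null females, 1 and 3 in WT males and 2 and 2 in Cyp2b-null males (medians −0.63, −0.67, 0.35 and 0.38). G6pc changed by −2.30 (adjusted p = 1.21e-05) and −1.13 (adjusted p = 0.00143) in WT females and males. Pck1 changed by −1.31 (adjusted p = 0.00640) in WT females and was not called in WT males at −0.10 (adjusted p = 0.815). Igfbp1 was not called in WT females at −0.92 (adjusted p = 0.205), and changed by 0.92 (adjusted p = 0.0266) in WT males. Fgf21, a hormone released by the stressed or fasted liver, was at 1.80, 2.34, 0 and 0.346 CPM on ND and 11.8, 7.03, 8.40 and 14.0 CPM on CDAHFD in WT females, a change of 3.27 (adjusted p = 0.00126). Lipogenic genes follow the time of day, so 8 tested clock output genes were read as well (Npas2 failed the filter). Called lower and higher were 0 and 0 in WT females, 1 and 0 in Cyp2b-null females, 1 and 0 in WT males and 1 and 1 in Cyp2b-null males, by edgeR, with medians of −0.01, −0.62, 0.54 and 0.63. Arntl changed by −1.35 (adjusted p = 0.0182) in WT males.

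Cell type markers moved with the diet too. Of 7 hepatocyte markers, 6 were lower and 0 higher in WT females, 5 and 0 in Cyp2b-null females, 7 and 0 in WT males and 5 and 0 in Cyp2b-null males (medians −0.83, −0.72, −0.71 and −0.54). Their summed level on CDAHFD was 76099.9 to 102489 CPM in WT females and 55699 to 98931 CPM in WT males, below the ND values given above, with Alb again the most abundant. Those medians are smaller in size than the member medians, but in WT females Srebf1 (−0.82) and Mlxipl (−0.60) fell by no more than the hepatocyte median, and in Cyp2b-null females Mlxipl (−0.84) fell by little more. Of 6 tested macrophage markers, 0 were lower and 5 higher in WT females, 0 and 5 in Cyp2b-null females, 0 and 5 in WT males and 0 and 5 in Cyp2b-null males (medians 1.64, 1.59, 2.80 and 3.16). Their sum was 277 to 425 CPM on ND and 814 to 1133 CPM on CDAHFD in WT females, with Clec4f the most abundant on ND and Lyz2 on CDAHFD. Trem2 had 0 counts in every library, and whether it was missed in counting was not tested. Every ND library of WT males was likewise below every CDAHFD library in this sum. Of 6 stellate cell markers, 0 were lower and 3 higher in WT females, 0 and 4 in Cyp2b-null females, 0 and 3 in WT males and 0 and 5 in Cyp2b-null males (medians 0.72, 1.03, 0.89 and 1.38), with a sum of 104 to 172 and 345 to 515 CPM on ND and CDAHFD in WT females, led by Reln and by Col3a1. Cholangiocyte markers, 5 of them led by Spp1, were 0 lower and 2 higher in WT females, 0 and 3 in Cyp2b-null females, 0 and 2 in WT males and 0 and 2 in Cyp2b-null males (medians 0.84, 1.21, 0.66 and 0.75), with sums of 37.8 to 62.0 and 114 to 211 CPM in WT females. Endothelial markers, also 5, were 2 lower and 0 higher in WT females, 2 and 0 in Cyp2b-null females, 1 and 1 in WT males and 0 and 3 in Cyp2b-null males (medians −0.34, −0.45, −0.06 and 0.53), with sums of 196 to 244 and 144 to 196 CPM. Of the cholangiocyte markers, Spp1 was at 152 CPM where the mean sum was 166 CPM, in WT females on CDAHFD. That sum thus reads mostly Spp1. The part of these marker shifts in the fall of the members was not tested.

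Markers of lymphocytes and other tissues had low sums. Lymphocyte markers summed to 2.94 to 4.07 CPM on ND and 3.89 to 5.80 CPM on CDAHFD in WT females, and to 3.90 to 7.61 and 8.22 to 10.9 CPM in Cyp2b-null females, there without overlap. In females 2 of 5 were tested, Cd79a and Trbc2, and 0 of 5 in males, and edgeR called neither in females. Adipocytes, which express lipogenic genes as well, were read from 5 markers whose sum stayed within 0 to 0.678 CPM in WT females on ND, with Lep at 0 counts in all libraries and Adipoq at 3 counts over all female libraries. In males Cfd alone was tested, and it was lower on CDAHFD in both genotypes, with changes of −3.15 (adjusted p = 0.0308) in WT and −5.89 (adjusted p = 1.41e-05) in Cyp2b-null, the adipocyte sum in Cyp2b-null males being 3.17 to 33.1 CPM on ND and 0 to 0.791 CPM on CDAHFD. In Cyp2b-null males on ND, Cfd was at 14.4 CPM where the mean adipocyte sum was 14.6 CPM, so that sum is almost all Cfd. Skeletal muscle markers reached at most 1.95 CPM in sum, in a Cyp2b-null female on ND, and none of the 4 was tested. Of 4 exocrine pancreas markers only Cela2a passed the filter, and it was not called, at 0.27 (adjusted p = 0.681) in WT females and −0.46 (adjusted p = 0.356) in WT males; their sum in WT females on ND was 1.56 to 2.42 CPM.

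To find genes that move like the members among mice of a group, each library's deviation from its group mean was correlated over 32 libraries with the mean profile of the 9 members tested in both tables. This is a description, since the libraries share depth and processing, and it uses no difference between groups. The WT ND libraries weigh most in it, since the profile, a mean of standardized deviations, ran from −2.15 to 1.86 in WT ND females and from −1.58 to 1.59 in WT ND males, against −0.73 to 0.76 in WT on CDAHFD and −0.73 to 0.55 in all Cyp2b-null groups. The 5 closest other genes were Chrna4 (Pearson r 0.867), Pklr (r 0.851), Elovl6 (r 0.833), Slco2b1 (r 0.828) and Acss2os (r 0.791). For single members the closest other gene was Mst1 for Acaca (r 0.819), Slco2b1 for Acacb (r 0.862), Gpam for Acly (r 0.886), Elovl6 for Fasn (r 0.811) and Dclk3 for Srebf1 (r 0.798). It was Leng8 for Mlxipl (r 0.812) and Gckr for Thrsp (r 0.873). Acss2os for Acss2 (r 0.951) and A330041J22Rik for Me1 (r 0.77) overlap the member on the genome, and without strand their reads cannot be told apart.

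Because the members fell together, their promoters were read for letters that the known regulators bind. RefSeq promoter entries on GRCm38.p6 matched all 10 members by symbol, with 14 entries, and the 250 bases before each start were searched on both strands. An entry's start need not be the first of its gene, and the starts of Acaca, Acacb, Fasn, Pnpla3 and Srebf1 and 1 each of Mlxipl and Me1 lie inside the gene spans given above. The sterol regulatory element core TCACNCCA was in 1 of 14 member entries and in 3.68% of 32841 promoters, and the E-box CACGTG in 1 of 14 and 6.02%, both in entries of Mlxipl. The CCAAT box CCAAT was in 9 of 14 and 33.9%, and the GC box GGGCGG in 7 of 14 and 32.7%. A match is only a description of the letters, and a missing match says nothing of a factor. Shown 5′ to 3′ are the 3 members with the largest falls in WT females, Fasn as the central enzyme, and the Mlxipl entry that holds the E-box, with motif matches in capitals; ATTGG and CCGCCC are CCAAT and GGGCGG on the other strand, and in Fasn a CCAAT on each strand overlaps.
Pnpla3 chr15:84167566-84167815 plus strand: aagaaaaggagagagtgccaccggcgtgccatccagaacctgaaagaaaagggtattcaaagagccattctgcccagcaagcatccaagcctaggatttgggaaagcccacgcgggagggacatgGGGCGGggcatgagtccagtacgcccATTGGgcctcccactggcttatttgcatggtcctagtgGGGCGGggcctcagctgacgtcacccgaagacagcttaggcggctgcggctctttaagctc
Thrsp chr7:97417551-97417800 minus strand: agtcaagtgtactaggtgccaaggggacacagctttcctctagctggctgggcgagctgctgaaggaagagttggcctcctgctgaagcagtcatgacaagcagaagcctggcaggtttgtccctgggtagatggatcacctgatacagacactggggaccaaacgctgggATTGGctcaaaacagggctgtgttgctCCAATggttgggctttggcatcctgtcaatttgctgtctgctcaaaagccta
Acss2 chr2:155517793-155518042 plus strand: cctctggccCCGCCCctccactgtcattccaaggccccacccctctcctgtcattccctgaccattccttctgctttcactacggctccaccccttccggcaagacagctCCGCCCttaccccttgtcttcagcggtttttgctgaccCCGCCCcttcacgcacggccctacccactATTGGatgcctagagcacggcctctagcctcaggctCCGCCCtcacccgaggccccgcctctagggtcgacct
Fasn chr11:120824548-120824797 minus strand: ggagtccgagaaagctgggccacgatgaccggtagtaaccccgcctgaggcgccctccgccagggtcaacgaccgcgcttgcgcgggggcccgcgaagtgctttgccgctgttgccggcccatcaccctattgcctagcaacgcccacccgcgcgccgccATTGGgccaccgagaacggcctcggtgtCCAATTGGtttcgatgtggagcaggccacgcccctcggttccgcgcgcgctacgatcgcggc
Mlxipl chr5:135089640-135089889 plus strand: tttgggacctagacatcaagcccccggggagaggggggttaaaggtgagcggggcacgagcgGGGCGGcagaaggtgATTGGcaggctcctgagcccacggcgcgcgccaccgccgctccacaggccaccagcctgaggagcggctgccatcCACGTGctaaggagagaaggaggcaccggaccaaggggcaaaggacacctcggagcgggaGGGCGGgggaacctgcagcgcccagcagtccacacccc
Pnpla3 held 1 CCAAT and 2 GC box matches, Thrsp 2 CCAAT and 0 GC box matches, Acss2 1 and 4, and Fasn 3 and 0.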

How the data were processed

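The authors extracted liver RNA with Trizol, made NEBNext Ultra RNA libraries, checked and trimmed reads with FastQC and Trimmomatic, used GSNAP for alignment to the GRCm38.p6 genome and counted reads per gene with Subread featureCounts; the deposited values are raw counts, 1 library per mouse, with no normalization. Tool versions, the strand setting and the treatment of reads with several alignments are not given in the sources used here. Library totals ranged from 2906411 to 10166959 counts, and the Pearson r of log2 CPM between libraries of a group from 0.934 to 0.980 in females and from 0.960 to 0.976 in males.

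Counts of each table were fitted in R 4.3.3 with edgeR 4.0.16 (glmQLFit and two-sided glmQLFTest) as 4 groups, after filterByExpr (smallest count 10, smallest total 15) and TMM scaling, and p-values were adjusted by Benjamini-Hochberg over all genes tested. TMM factors were 0.847 to 0.956 on ND and 0.980 to 1.17 on CDAHFD in females, and 0.834 to 0.901 and 1.02 to 1.30 in males. The difference between sexes came from a fit of both tables with 8 groups. The SE is the size of the log2 change over the square root of F. The code was tested on simulated data.

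All 10 members are named. From each of 9 pathway lists, up to 4 genes with the largest mean absolute change over the WT diet comparisons are named, among those called in at least 1. Some genes that meet this rule are not reported here. The likeness used log2 CPM with an offset of 0.5. The 9 marker lists are those given with the cell types and tissues in the results. Members and lists were chosen with earlier results of these data known.

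Alternatives were DESeq2 1.42.0, RLE factors, library size only, no filter, at least 1 CPM in at least 4 libraries, only the groups compared, a replicate block, the omission of 2 libraries that the study's heat maps lack (Cyp2b-null CDAHFD female replicate 3 and male replicate 4), and each library left out in turn. The labels do not say that equal replicate numbers pair samples, and deviations from group means of equally numbered libraries had r from −0.19 to 0.3, so no pairing was used.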

Additional observations from a re-analysis of the deposited data

Results flagged for a closer look

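Among 80 sets of 4 libraries, each of 10 genes in each of 8 groups, 2 held a library whose gap to the nearest other was large against the whole range by Dixon's criterion. Chance alone marks about 1 in 20 groups, so that 2 is no more than chance gives. Mlxipl in WT females on ND, replicate 2, was at 105 CPM, where the other libraries were between 190.1 and 196 CPM. The same library was the lowest of its group for all 10 members. Acss2 in Cyp2b-null males on ND, replicate 3, was at 476 CPM, with the others between 287 and 305 CPM. The cause of either value was not tested. Both libraries were kept.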

How the results depend on the processing

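The diet effects held best. Of member values for diet, 300 kept their direction and their side of the threshold under the alternatives and 3 lost their call, and with single libraries left out these numbers were 601 and 7. Each loss was of Mlxipl in females, with values given in the results, and its log2 change over single libraries left out ran from −0.86 to −0.49 in WT. The members called in WT females numbered 8 of 9 tested in a fit of the groups compared alone, whose filter Pnpla3 fails, 9 with library size only, and 9 to 10 with single libraries left out. With the replicate block, 10, 10, 9 and 9 members were called for diet in WT females, Cyp2b-null females, WT males and Cyp2b-null males, and 3099, 3978, 4373 and 4922 of all genes. Omitting the libraries that the heat maps lack changed no diet call of a member.

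Of values for genotype, 293 kept direction and side of the threshold under the alternatives, 8 changed direction and 2 gained a call. Of values for differences of diet effects, 283 kept both, 4 changed direction and 5 gained a call. With no filter, 1 member was called for genotype on ND in females, Acss2 −0.81 (adjusted p = 0.000303), and 1 on CDAHFD, Thrsp 0.81 (adjusted p = 0.00249). In the same fit 2 were called for the difference of diet effects between genotypes in females, Acss2 0.96 (adjusted p = 0.0249) and Thrsp 1.29 (adjusted p = 0.000102), and 1 each for the difference between sexes, Acss2 1.14 (adjusted p = 4.97e-05) in WT and Thrsp −0.75 (adjusted p = 0.0292) in Cyp2b-null. In a fit of the Cyp2b-null groups alone, 1 member differed between the sexes, Acaca 0.66 (adjusted p = 0.0452). The cause of these calls was not tested, and the p-values with no filter have the limit given for Pnpla3 in the results. Among all genes, calls with no filter were 122 for genotype on ND in females, 69 on CDAHFD, 170 and 51 in males, 46 and 95 for the difference between genotypes, and 469 in WT and 923 in Cyp2b-null for that between sexes, of 25490 genes tested in females, 25760 in males and 27613 in both.

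Other values changed direction, and none of these was called. Mlxipl for genotype on ND in females was 0.004 by DESeq2, 0.0029 with RLE factors, 0.0207 with no filter and 0.0025 with the filter at 1 CPM. Without the libraries that the heat maps lack, Acaca was −0.0337, Acly 0.0139 and Srebf1 −0.0223 for genotype on CDAHFD in females, Srebf1 −0.0436 and Thrsp −0.0383 for the difference between genotypes in males, and Pnpla3 −0.32 for that between sexes in Cyp2b-null. With library size only, Thrsp for genotype on CDAHFD in males was 0.0153 and Srebf1 between the sexes in Cyp2b-null 0.0502. With single libraries left out, 35 values for genotype and 40 for differences changed direction, over the following ranges. For genotype on ND in females, the ranges were Acacb −0.52 to 0.22, Acly −0.35 to 0.17, Fasn −0.35 to 0.41, Me1 −0.0095 to 0.26 and Mlxipl −0.17 to 0.0733. On CDAHFD in females, the ranges were Acaca −0.0508 to 0.19, Acacb −0.12 to 0.0445, Acly −0.11 to 0.038, Fasn −0.0552 to 0.25, Me1 −0.26 to 0.0644, Srebf1 −0.0729 to 0.19 and Mlxipl −0.36 to 0.0132. For the difference of diet effects between genotypes, the female ranges were Acaca −0.33 to 0.0349, Acacb −0.26 to 0.48, Acly −0.21 to 0.31, Fasn −0.32 to 0.44, Srebf1 −0.27 to 0.0224 and Mlxipl −0.36 to 0.0136. For genotype on ND in males, the ranges were Acaca −0.35 to 0.0231, Acacb −0.72 to 0.15, Acly −0.47 to 0.33 and Thrsp −0.39 to 0.0718. On CDAHFD in males the range was that of Thrsp, −0.23 to 0.30. For the difference between genotypes, the male ranges were Acaca −0.16 to 0.21, Acacb −0.0168 to 0.85, Acly −0.66 to 0.14, Fasn −0.10 to 0.51, Srebf1 −0.13 to 0.29, Mlxipl −0.18 to 0.0867 and Thrsp −0.0827 to 0.47. Between the sexes in WT, the range was that of Acacb, −1.06 to 0.0426. Between the sexes in Cyp2b-null, the ranges were Srebf1 −0.14 to 0.11 and Pnpla3 −0.38 to 1.12.

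Of all genes, calls with single libraries left out ran from 7 to 12 for genotype on ND in females. In males on ND the 5 calls became 29 without WT ND replicate 2, 3 without WT ND replicate 4, and 2, 3 and 10 without Cyp2b-null ND replicates 2, 3 and 4. On CDAHFD in males the 4 calls became 2, 1, 1 and 2 without WT CDAHFD replicates 1 to 4 in turn, 1 without Cyp2b-null ND replicate 3, and 1, 1 and 2 without Cyp2b-null CDAHFD replicates 1, 3 and 4. For the difference between genotypes in males the 1 call became 3 without WT ND replicate 2, 0 without Cyp2b-null ND replicate 1 and 3 without Cyp2b-null CDAHFD replicate 3. Between the sexes in WT, the 136 calls became 261 without WT CDAHFD male replicate 1, 90 without replicate 2, 87 without replicate 4, 90 without WT ND male replicate 2 and 84 without WT ND female replicate 3. In Cyp2b-null the 477 became 238 without CDAHFD male replicate 3, 298 without ND male replicate 2 and 311 without ND male replicate 4. No member was called in any of these fits for genotype or between the sexes.

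Depth limits Pnpla3, whose group sums in males were between 4 and 31 counts, and other members were counted well in each library. Whole-liver RNA does not tell cell number from RNA per cell. Enzyme amount, protein processing of SREBP-1 and lipogenic flux were not measured here, and a different source of the mice, if there was one, cannot be told apart from genotype. The female comparison of diet effects between genotypes already uses all 4 groups, as does the male, so a fit of the groups compared alone was not run for them.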
